A study of Mus musculus with 24 samples.

Results

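H3K4me2, the dimethyl mark on lysine 4 of histone H3, was compared between day 6 embryoid bodies (EB) and undifferentiated embryonic stem (ES) cells of wild-type C57BL/6 mice. Peaks from 4 CUT&RUN libraries, 2 of EB and 2 of ES cells, were merged where they overlapped, which gave 32800 regions. Of these, 1807 regions (5.51%) held a peak in both EB lists and neither ES list and are called EB-only, and 6668 (20.3%) held a peak in both ES lists and neither EB list and are called ES-only. A further 10505 regions held a peak in all 4 lists. The series has 24 libraries in 12 groups of 2, for PRDM16, H3K4me1 and H3K4me2 in EB and ES cells, each in Prdm16 KO and wild type. EB had been differentiated from ES cells for 6 days and were grown in Knock-out DMEM with FBS. ES cells were grown in the same basal medium with FBS, KSR (a serum replacement) and LIF on Matrigel plates. All groups share the C57BL/6 background, and the H3K4me2 antibody was of 1 catalogue number throughout. CUT&RUN cuts chromatin with a nuclease tethered to an antibody and sequences the fragments released. Embryoid bodies are aggregates in which ES cells leave pluripotency and begin to form several lineages, so each EB library averages a mixture of cells, whereas LIF holds ES cells in self-renewal.

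H3K4 methylation is placed by the KMT2 and SET1 complexes and removed by the KDM1 and KDM5 demethylases. H3K4me2 lies on both sides of active and poised gene starts and on enhancers, while H3K4me3 is centred on starts and H3K4me1 is the broader mark of enhancers. In ES cells, CpG-rich starts of silent developmental regulators carry H3K4 methylation together with the Polycomb mark H3K27me3, a state called bivalent. Loss or gain of H3K4me2 at such starts and at enhancers accompanies the choice of lineage.

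The 2 microRNA clusters of mouse pluripotent cells, miR-290 and miR-302, lay in regions of opposite class. Both make microRNAs that start with the same seed, bases 2 to 8, and that speed the cell cycle of ES cells and aid reprogramming. The following 5 mature sequences, from RefSeq on GRCm38.p6, share the seed printed in capitals. They were picked after the peaks had been seen, to show that the microRNAs in the opposite classes are close relatives.
mmu-miR-291a-3p: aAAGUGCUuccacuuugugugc
mmu-miR-294-3p: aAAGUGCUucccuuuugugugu
mmu-miR-295-3p: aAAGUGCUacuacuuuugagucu
mmu-miR-302b-3p: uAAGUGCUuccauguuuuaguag
mmu-miR-302d-3p: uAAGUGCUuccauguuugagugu

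The miR-290 cluster lay in an EB-only region at chr7:3216116-3221579 on mm10, 5464 bp wide. EB peaks there covered 3368 and 5464 bp with scores of 184.8 and 158.8, and neither ES list held a peak. In Prdm16 KO, both EB lists held a peak there and neither ES list did. The miR-302 cluster, which also holds Mir367, lay in an ES-only region of 1724 bp at chr3:127544521-127546244. ES peaks there covered 1724 and 1249 bp with scores of 124.59 and 79.21, below the medians of their lists, 140.9 and 134.86, and neither EB list held a peak. In KO this region held weak peaks in both EB lists, with scores of 54.9 and 67.76, and in 1 of the 2 ES lists, with a score of 67.21, so the KO lists did not repeat the wild-type difference at miR-302. Of 1005 microRNA hairpins in the table, 14 (1.39%) lay in EB-only and 31 (3.08%) in ES-only regions. Hairpins of a cluster share a region, as those of miR-290 and of miR-302 do, so they are not separate events. Mir291a lies in the miR-290 region but is not among the hairpins counted. Mir21a, a microRNA of many differentiated and dividing cells, was in an EB-only region with scores of 193.86 and 208.56. Mir9-2 and Mir9-3, neural microRNAs, were in ES-only regions, with scores of 65.57 and 69.09 and of 50.45 and 71.43, near the lowest score kept, 50. Mir128-2, a microRNA enriched in brain, was in an EB-only region, with scores of 122.09 and 256.19, so neural microRNAs were found in both classes.

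The next 8 sequences are promoters, 250 bases before to 50 after a listed start, from RefSeq on GRCm38.p6. They were chosen after the peaks had been seen, to set starts of pluripotency genes with EB-only peaks beside starts of lineage genes with ES-only peaks. Capitals mark CG dinucleotides, which recruit the H3K4 methyltransferase complexes when unmethylated. The first 4, EB-only, are Tet2 at chr3:133544341-133544640 on the minus strand, Tfcp2l1 at chr1:118627695-118627994 on the plus strand, Fgf4 at chr7:144861136-144861435 on the plus strand and Klf2 at chr8:72318812-72319111 on the plus strand. The last 4, ES-only, are Efna5 at chr17:62881268-62881567 on the minus strand, Twist1 at chr12:33957421-33957720 on the plus strand, Lhx2 at chr2:38339031-38339330 on the plus strand and Isl1 at chr13:116309639-116309938 on the minus strand.
Tet2: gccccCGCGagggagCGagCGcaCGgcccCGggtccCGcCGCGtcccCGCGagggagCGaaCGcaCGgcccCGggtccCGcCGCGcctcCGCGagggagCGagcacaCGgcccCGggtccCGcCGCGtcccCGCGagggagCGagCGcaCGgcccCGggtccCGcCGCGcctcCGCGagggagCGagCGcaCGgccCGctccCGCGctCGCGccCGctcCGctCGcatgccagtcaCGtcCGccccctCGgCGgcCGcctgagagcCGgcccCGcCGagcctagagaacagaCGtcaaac
Tfcp2l1: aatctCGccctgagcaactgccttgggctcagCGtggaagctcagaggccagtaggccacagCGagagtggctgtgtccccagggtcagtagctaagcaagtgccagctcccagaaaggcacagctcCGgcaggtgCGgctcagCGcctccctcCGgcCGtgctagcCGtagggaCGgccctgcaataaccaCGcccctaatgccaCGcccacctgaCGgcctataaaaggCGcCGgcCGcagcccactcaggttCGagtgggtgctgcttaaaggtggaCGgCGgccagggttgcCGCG
Fgf4: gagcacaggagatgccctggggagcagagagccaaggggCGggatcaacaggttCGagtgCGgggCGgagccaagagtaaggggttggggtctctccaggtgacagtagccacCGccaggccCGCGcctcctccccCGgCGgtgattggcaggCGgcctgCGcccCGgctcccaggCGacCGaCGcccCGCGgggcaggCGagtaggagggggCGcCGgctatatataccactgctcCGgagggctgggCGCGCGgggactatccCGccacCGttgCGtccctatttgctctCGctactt
Klf2: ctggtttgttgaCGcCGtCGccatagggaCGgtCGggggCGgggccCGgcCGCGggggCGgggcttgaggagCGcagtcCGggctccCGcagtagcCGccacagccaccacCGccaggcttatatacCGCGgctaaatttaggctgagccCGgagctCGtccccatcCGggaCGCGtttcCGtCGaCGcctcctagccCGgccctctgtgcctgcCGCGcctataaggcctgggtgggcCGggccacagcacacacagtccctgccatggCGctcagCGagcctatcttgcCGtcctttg
Efna5: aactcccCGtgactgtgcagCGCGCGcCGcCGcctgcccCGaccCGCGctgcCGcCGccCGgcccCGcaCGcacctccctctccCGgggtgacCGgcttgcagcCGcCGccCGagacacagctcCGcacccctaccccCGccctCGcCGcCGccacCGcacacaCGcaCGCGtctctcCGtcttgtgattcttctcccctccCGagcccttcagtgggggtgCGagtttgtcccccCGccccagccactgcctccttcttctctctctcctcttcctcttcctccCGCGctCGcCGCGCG
Twist1: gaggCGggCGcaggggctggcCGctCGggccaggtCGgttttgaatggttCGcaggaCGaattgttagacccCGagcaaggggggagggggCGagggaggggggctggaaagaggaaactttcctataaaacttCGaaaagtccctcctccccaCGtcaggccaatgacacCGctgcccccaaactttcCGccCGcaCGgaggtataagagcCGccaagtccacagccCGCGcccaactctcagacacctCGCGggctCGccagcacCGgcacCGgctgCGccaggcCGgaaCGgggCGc
Lhx2: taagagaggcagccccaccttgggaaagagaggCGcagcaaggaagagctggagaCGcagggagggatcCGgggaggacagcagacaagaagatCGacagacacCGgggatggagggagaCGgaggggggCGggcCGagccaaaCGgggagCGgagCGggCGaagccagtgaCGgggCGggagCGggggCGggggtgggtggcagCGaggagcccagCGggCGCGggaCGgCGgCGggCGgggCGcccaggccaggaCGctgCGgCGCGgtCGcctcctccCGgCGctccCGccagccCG
Isl1: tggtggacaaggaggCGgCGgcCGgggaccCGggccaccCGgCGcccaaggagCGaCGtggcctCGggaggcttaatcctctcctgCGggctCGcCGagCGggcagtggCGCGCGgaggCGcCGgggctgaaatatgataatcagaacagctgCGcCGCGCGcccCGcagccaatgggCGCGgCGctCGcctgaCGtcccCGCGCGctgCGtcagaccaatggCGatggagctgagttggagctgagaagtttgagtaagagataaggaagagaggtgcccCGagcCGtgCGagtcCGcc

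These 8 promoters held 57, 21, 28 and 32 CG dinucleotides in the EB-only group and 38, 27, 34 and 37 in the ES-only group, so both groups were CpG-rich. Over all promoters whose start windows had EB-only peaks the median was 20 CG in 300 bases (821 promoters), and over those with ES-only peaks it was 13 (782 promoters). Promoters with a peak in all 4 lists had a median of 21, those with none had 3, and all 21263 promoters had 13. The TATA-box letters TATAAA, searched on both strands, were in 9.26% of EB-only and 9.21% of ES-only promoters, against 12.6% of all promoters of the same length. Among the 8 promoters they were found in Tfcp2l1 and Twist1. A match is a description of the letters, not a site of binding.

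The 4 lists differed in length and in the width of their peaks. EB lists held 14334 and 19246 peaks (16790 ± 3473, SD, n = 2), against 24600 and 22615 in ES cells (23607.5 ± 1404, SD, n = 2), on chromosomes 1 to 19, X and Y. The log2 EB over ES ratio of peak number was -0.51, with an exact two-sided permutation p of 0.333, the smallest that 2 against 2 libraries allow. The longer EB list, replicate 2, belongs to another library series in the titles than the other 3 libraries. EB peaks had median widths of 3147.5 and 3013 bp, against 2253 and 2208 bp in ES cells. They covered 55.1 ± 10.6 Mb, against 62.4 ± 4.45 Mb in ES cells (log2 ratio -0.19, exact permutation p = 0.667). Nothing in the labels ties the libraries of a group to separate cultures, so p-values measure only the spread between libraries, which may be technical. The depth behind each list is unknown. In these bulk libraries, fewer cells with the mark and less of the mark per cell cannot be told apart.

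The 1807 EB-only and 6668 ES-only regions stood far above what the other choices of 2 lists gave. Regions with a peak in 1 EB and 1 ES list and in neither of the others numbered 65, 38, 502 and 260. The 2 larger of these counts both include EB replicate 2. The share of regions that were specific to a stage depended on the strength of their peaks. Of 13324 regions with a peak in both EB lists, 13.6% were EB-only, and of 19367 with a peak in both ES lists, 34.4% were ES-only. Ranked by score in 5 equal groups, 33.1% of EB regions and 62.9% of ES regions in the weakest group were specific to their stage, and 1.39% and 6.76% in the strongest. The excess of ES-only over EB-only regions nearly closed at equal list lengths: with each list shortened to its 14334 highest-scoring peaks, 2569 regions were EB-only and 2737 ES-only. Without EB replicate 2, 2310 were EB-only and 8582 ES-only, and without EB replicate 1, 5014 and 6994.

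**Figure D1:**
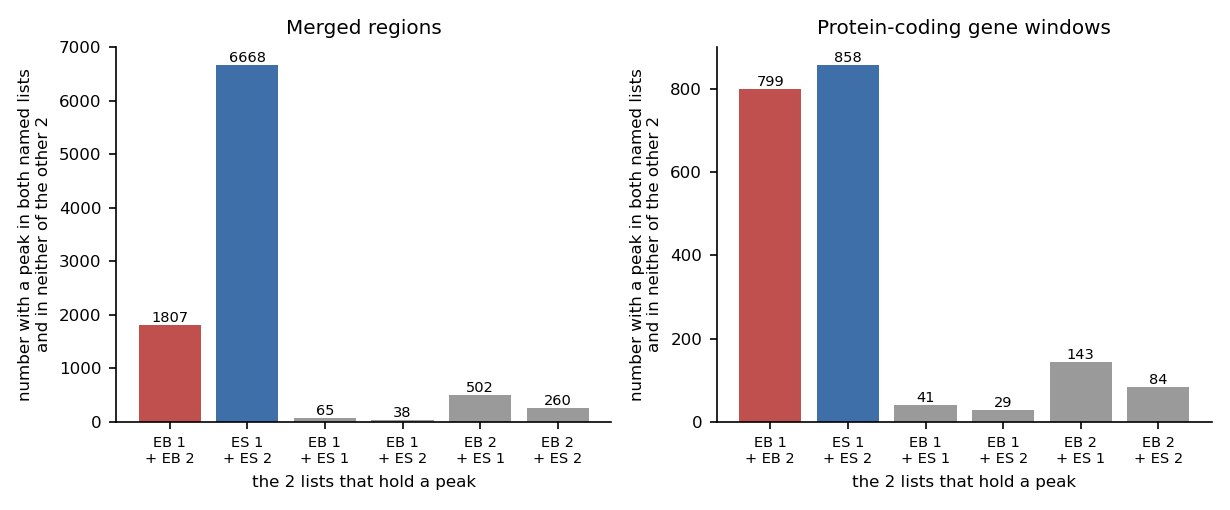
Number of merged regions (left) and of gene windows (right) with a peak in both named lists and in neither of the other 2, for all 6 choices of 2 of the 4 wild-type H3K4me2 lists. The EB pair (1807 regions, 799 genes) and the ES pair (6668 regions, 858 genes) exceed the mixed pairs, which reach 502 regions and 143 genes.

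EB-only regions were wider and more often at gene starts than ES-only regions, which were mostly away from starts. EB-only regions had a median width of 3252 bp, against 2160 bp for ES-only regions and 4172 bp for regions in all 4 lists. The median of all regions was 2721 bp. Peaks of the whole lists differed in the same direction, with median widths of 3147.5 and 3013 bp in EB and 2253 and 2208 bp in ES cells. At gene starts alone, the median was 5193 bp for EB-only and 3385 bp for ES-only regions, against 4355.5 bp for regions in all 4 lists. No start was listed for 4395 of 21887 protein-coding genes, so both ends of these genes were used, which need not be starts. A region counted as at a gene start when it came within 2500 bp of a listed start or of such an end. This held for 43.6% of EB-only regions (95% exact binomial interval 41.3 to 45.9%) and for 14.7% of ES-only regions (13.9 to 15.6%), against 79.0% of regions in all 4 lists and 40.1% of all regions. The EB-only share was thus near that of all regions, and the ES-only share was below it. A further 29.5% of EB-only and 47.3% of ES-only regions lay inside genes, and 26.9% and 38% lay between genes. The intervals cover counting error only, and regions are not replicates. At equal list lengths the shares at starts were 54.6% of EB-only and 19.2% of ES-only regions, and in the higher-scoring 50% of each list they were 76.4% and 35.9%, so the difference kept its direction. The nearest peak of the other stage was a median of 18419 bp from EB-only and 21724 bp from ES-only regions, and 11.5% and 10.1% had one within 5000 bp. Most stage-specific regions thus had no peak of the other stage close by.

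**Figure D2:**
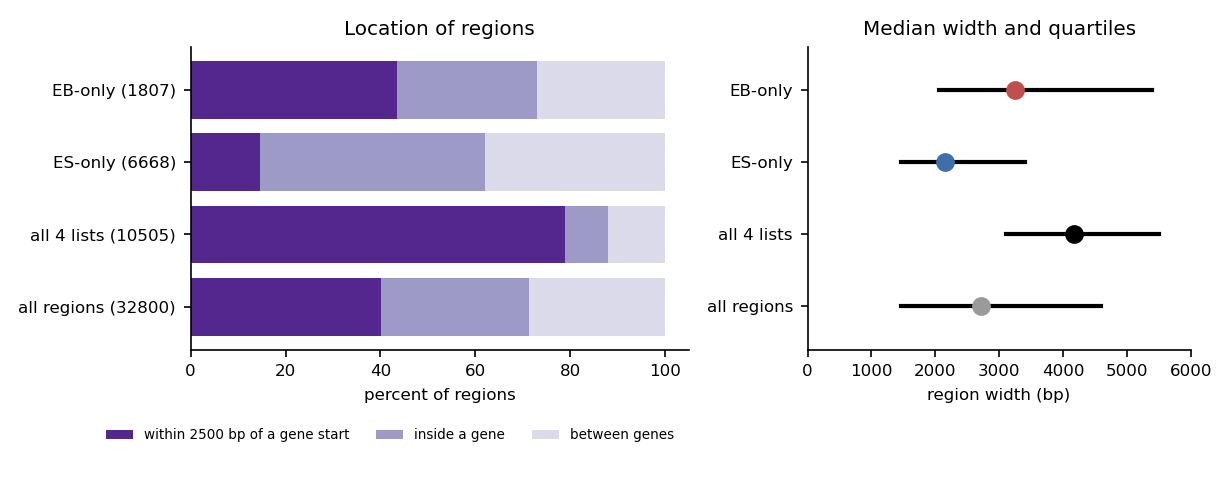
Left, percent of regions at a gene start, inside a gene and between genes, by class, with the number of regions in brackets. At a gene start means within 2500 bp of a listed start, or of either gene end where none was listed. Right, median region width in bp (points) with the lower and upper quartiles (bars). Over all locations, EB-only regions (43.6% at starts, median 3252 bp) sit between ES-only regions (14.7%, 2160 bp) and regions in all 4 lists (79.0%, 4172 bp). At starts alone the median width of EB-only regions was 5193 bp, against 4355.5 bp for regions in all 4 lists.

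The X chromosome stood apart for ES-only regions. It held 45 EB-only regions, 5.94% of its 758 regions, a share inside the range of the autosomes (4.05 to 6.08%). It held 63 ES-only regions, 8.31% of its regions, whereas the autosomes had 18.1 to 23.8%. X peaks made up 3.41% and 3.13% of the EB lists and 2.39% and 2.48% of the ES lists, so the ES lists had the smaller share of peaks on X. This is a description with no test.

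Regions marked at both stages tended to be wider in EB. In the 10505 regions of all 4 lists, the median covered width was 3275 and 3599 bp in EB, against 2809 and 2686 bp in ES cells. The log2 EB over ES ratio of these medians was 0.32 (exact permutation p = 0.333, the smallest possible), and the groups did not overlap. Both EB lists covered more than both ES lists in 5671 regions (54.0%), and the reverse held in 1522 (14.5%). The ratio was 0.34 at equal list lengths and 0.26 without EB replicate 2.

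Libraries that played no part in choosing the regions separated the stages in the same direction. For each of 12 other libraries, the share of ES-only regions with a peak was taken from the share of EB-only regions with a peak. The difference of this value between EB and ES libraries, averaged over H3K4me2 in KO and H3K4me1 in wild type and KO, was 73.8 percentage points. A two-sided exact permutation of stage within each of the 3 sets gave p = 0.00926, the smallest it allows. The difference was 113 points for H3K4me2 in KO, 63.9 for H3K4me1 in wild type and 44.5 for H3K4me1 in KO (each exact permutation p = 0.333). All 6 EB libraries were positive and all 6 ES libraries negative.

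In Prdm16 KO, peaks of H3K4me2 lay in 54.8% and 50.8% of EB-only regions in EB, against 20.4% and 24.4% in ES cells. They lay in 7.36% and 5.47% of ES-only regions in EB, against 86.5% and 91.7% in ES cells. Over all 32800 regions the shares were 41.9% and 39.1% in EB, against 71.0% and 76.2% in ES cells, so EB-only regions stood less far above their background in EB than below it in ES cells. A wild-type EB-only region was also EB-only in KO in 586 cases (32.4%) and ES-only in 122 (6.75%). A wild-type ES-only region was also ES-only in KO in 5179 cases (77.7%) and EB-only in 31 (0.465%). The share of all 32800 regions with either call in KO was not counted, so these values lack that background. The KO EB lists are shorter than the KO ES lists, with 15205 and 13818 peaks against 29138 and 32874, and the part of list length in these shares was not tested.

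H3K4me1 in wild type gave the same picture at lower shares. EB-only regions held an H3K4me1 peak in 45.9% and 44.3% of cases in EB, against 16.0% and 13.1% in ES cells. ES-only regions held one in 9.88% and 9.28% in EB, against 45.8% and 40.1% in ES cells. Over all 32800 regions the H3K4me1 shares were 22.8% and 21.6% in EB, against 31.7% and 27.3% in ES cells. The calls differed by location. Of EB-only regions at gene starts, 54.9% were EB-only for H3K4me2 in KO, 10.5% for H3K4me1 in wild type and 5.20% for H3K4me1 in KO. The opposite call, ES-only, was made at 3.81%, 4.19% and 6.47% of them, so for H3K4me1 in KO it was the more frequent. Of EB-only regions away from starts, 15.0%, 38.5% and 14.2% were EB-only in these sets, and 9.03%, 0.687% and 3.63% were ES-only. Within KO the EB-only shares of the marks were thus close there. ES-only regions were ES-only at starts in 49.9% for H3K4me2 in KO, 17.2% for H3K4me1 in wild type and 15.7% for H3K4me1 in KO. Away from starts the shares were 82.5%, 26.9% and 26.7%, higher than at starts in all 3 sets. The opposite call, EB-only, was made at no more than 3.26% of ES-only regions at starts and 0.826% of those away from them. The shares of all 32800 regions with these calls were not counted.

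**Figure D3:**
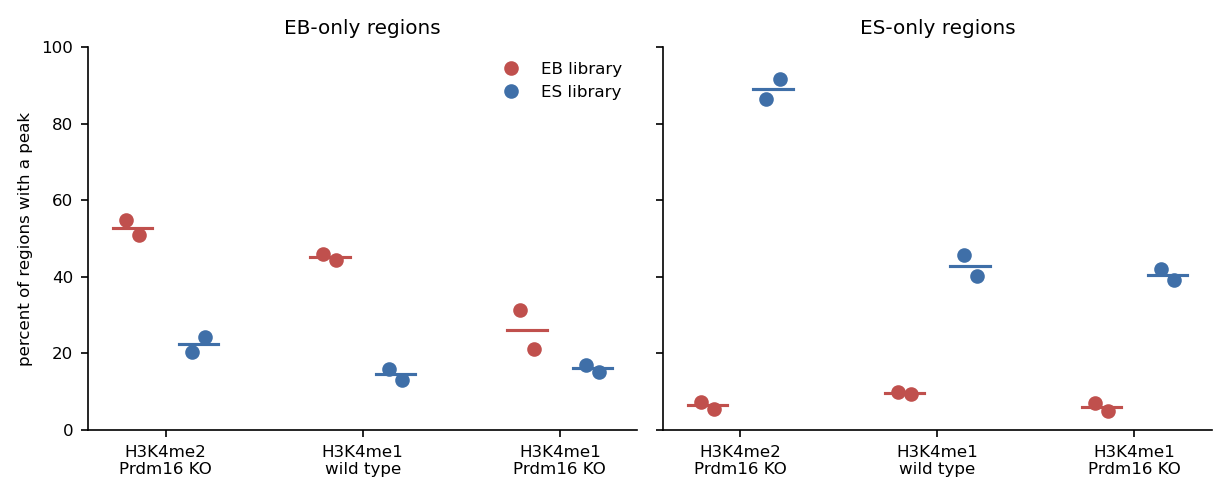
Percent of EB-only regions (left) and ES-only regions (right) that hold a peak in each of 12 libraries not used to define them, EB libraries left of ES libraries in each set. Points are libraries and lines are means of 2. In each of the 3 sets both EB libraries lie above both ES libraries at EB-only regions, and below them at ES-only regions.

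PRDM16 peaks met few regions of any class. Wild-type EB lists met 0.466% and 1.07% of regions in all 4 H3K4me2 lists, 0.221% and 0.387% of EB-only and 0.105% and 0.300% of ES-only regions. Wild-type ES lists met 0.600% and 0.428% of regions in all 4 lists, 0.498% and 0.221% of EB-only and 0.315% and 0.210% of ES-only regions. The EB lists of wild type, with 146 and 258 PRDM16 peaks, overlapped 4 and 7 EB-only regions, against 9 and 4 in the ES lists of wild type, with 331 and 191 peaks. They overlapped 7 and 20 ES-only regions, against 21 and 14 in ES cells. The KO lists, in which the PRDM16 antibody should have no target, held 173 and 187 peaks in EB and 586 and 499 in ES cells. They overlapped 7 and 6 EB-only and 10 and 11 ES-only regions in EB, against 9 and 9 EB-only and 27 and 23 ES-only regions in ES cells. The lists differ in length, and no test was made on these counts.

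The EB-only regions with the highest scores at gene starts named genes of varied roles. The 12 regions with the highest lower score rank included those at Elk3, Tasor, Jam2, Shld3, Pigz, Timm21, Tbce, Tet2, Rnf13, Acss3 and Glt1d1, and all 12 also held a peak in both KO EB lists. Elk3, an ETS factor of mesoderm and vessels, had scores of 259.44 and 477.16 in EB at chr10:93308496-93312784, and no peak in ES cells. Tasor, a subunit of the HUSH complex that silences retroelements, had 250.32 and 478.8 at chr14:27428155-27430893, and here both KO ES lists held peaks too. Scores of EB replicate 2 were above those of EB replicate 1 at both, and the median scores of the whole lists were 190.415 in replicate 2 and 128.78 in replicate 1.

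Away from starts, the 8 top EB-only regions lay inside Aff1, Arhgap24, Psd3 and Osbpl1a, or nearest to Ptprc, Efna5, Qrfpr and Tyw3. Aff1, a subunit of the super elongation complex, held a region of 4449 bp with scores of 230.51 and 391.96 in EB. In wild type, 6 of the 8 also held an H3K4me1 peak in both EB lists. The nearest gene is a matter of distance alone, 160548 bp for Ptprc and 57754 bp for Efna5. Genes with the most EB-only regions within their span and 50 kb around it were Asic4, Scpep1, Znrf3 and Mcc with 4 each. Elobl and Ppp1r11 had 3, and 73 genes in all had 3 or more. Znrf3, which removes Wnt receptors from the cell surface, and Mcc, also linked to Wnt signalling, had 1 and 3 ES-only regions as well.

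The ES-only regions with the highest scores at gene starts also named genes of varied roles. The 12 were at Nxph1, Lrrc4, Gm40881, Dtx4, Elovl3, Efna5, Mab21l2, Hipk2, Tex19.1, Atf3, Tspan9 and Ccdc185, and all 12 held a peak in both KO ES lists. Nxph1, a ligand of neurexins, had scores of 455.75 and 539.19 in ES cells at chr6:8947763-8952397, with no peak in wild-type EB. Lrrc4, a synaptic adhesion protein, had 453.67 and 533.46 at chr6:28830262-28834665. Efna5, an ephrin ligand in axon guidance, had 377.29 and 509.17 at chr17:62878939-62884572. All of these 3 also held peaks in both KO EB lists, and at least 1 KO EB list held a peak in 7 of the 12 regions.

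Of the 8 top ES-only regions away from starts, those inside genes lay in Efnb2, Iqsec1, Fndc1, Abca16, Prim2 and Wapl, and the others were nearest to Ephb3 and Rai14. The ephrin ligand Efnb2 had scores of 508.88 and 570.1 in ES cells and 720 and 801.01 in KO ES cells, with no peak in any of the 4 EB lists. A region 22398 bp from Ephb3, an ephrin receptor, had 547.35 and 483.66 in ES cells, and it held peaks in both KO EB lists, with scores of 256.61 and 82.51. The genes with the most ES-only regions within their span and 50 kb around it were Pde4d, a cAMP phosphodiesterase, with 12, Magi1 with 11, the overlapping gene models Gm38667, Gm38666 and Gm37013 with 11 each, and Arid5b with 9. Pde4d, Magi1 and Arid5b span 1302, 608 and 187 kb, and counts were not scaled by span. In all, 3486 protein-coding genes had an EB-only region within that distance, 8634 an ES-only region and 1796 both.

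EB-only and ES-only genes were similar in number. A gene was taken as marked in a list when a peak came within 2500 bp of a listed start, or of either gene end where no start was listed. Of 21887 protein-coding genes, 799 were EB-only (3.65%) and 858 ES-only (3.92%), 9066 were marked in all 4 lists (41.4%) and 8105 in none (37.0%). The other choices of 2 lists gave 41, 29, 143 and 84 genes. In KO, 447 of the EB-only genes were again EB-only (55.9%) and 29 ES-only, and 372 of the ES-only genes were again ES-only (43.4%) and 25 EB-only, whereas 4.78% and 5.56% of all genes were EB-only and ES-only in KO. At equal list lengths 1475 genes were EB-only and 514 ES-only, so the similar numbers depended on list length. Without EB replicate 2, 956 were EB-only and 1550 ES-only.

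Within the gene lists, the classes differed in which members were called. Members and lists were chosen with earlier results of these data known, so the counts are a description and not a test. In wild type, gene windows of several pluripotency genes held peaks in EB and not in ES cells. Those of some lineage regulators held peaks in ES cells and not in EB. Lists of genes were read as counts beside the share of all genes, 3.65% EB-only and 3.92% ES-only. Of 30 core and naive pluripotency genes, 7 were EB-only (23.3%) and 2 ES-only (6.67%). At equal list lengths 9 were EB-only and 1 ES-only, against 1475 and 514 of all 21887 genes. In the higher-scoring 50% of each list the counts were 4 and 2, against 644 and 1094 of all genes. Among the 16 with a listed start they were 4 and 1, against 651 and 618 of 17492 genes. The union of 7 lineage lists (Hox, trophoblast, endoderm, neuroectoderm, cardiac, streak with mesoderm, and blood with endothelium) held 159 genes, of which 2 were EB-only (1.26%) and 29 ES-only (18.2%). The union was not recounted under the alternatives. At equal list lengths the ES-only count went from 7 to 0 for Hox and from 7 to 6 for neuroectoderm. Over all genes it went from 858 to 514. In KO, 5 of the 29 ES-only lineage genes held a peak in both EB lists, 8 in 1 EB list and 16 in neither. This split was not counted over all 858 ES-only genes. Peaks lay at 38 and 48 of the 159 genes in EB, against 83 and 79 in ES cells. Over all 21887 genes the numbers were 10985 and 11865 against 11805 and 11449. In KO, peaks lay at 51 and 46 of the 159 in EB, against 60 and 67 in ES cells. Over all genes the KO numbers were 11849 and 11100 against 11397 and 12139. At the 159 genes the stages were less far apart in KO.

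**Figure D4:**
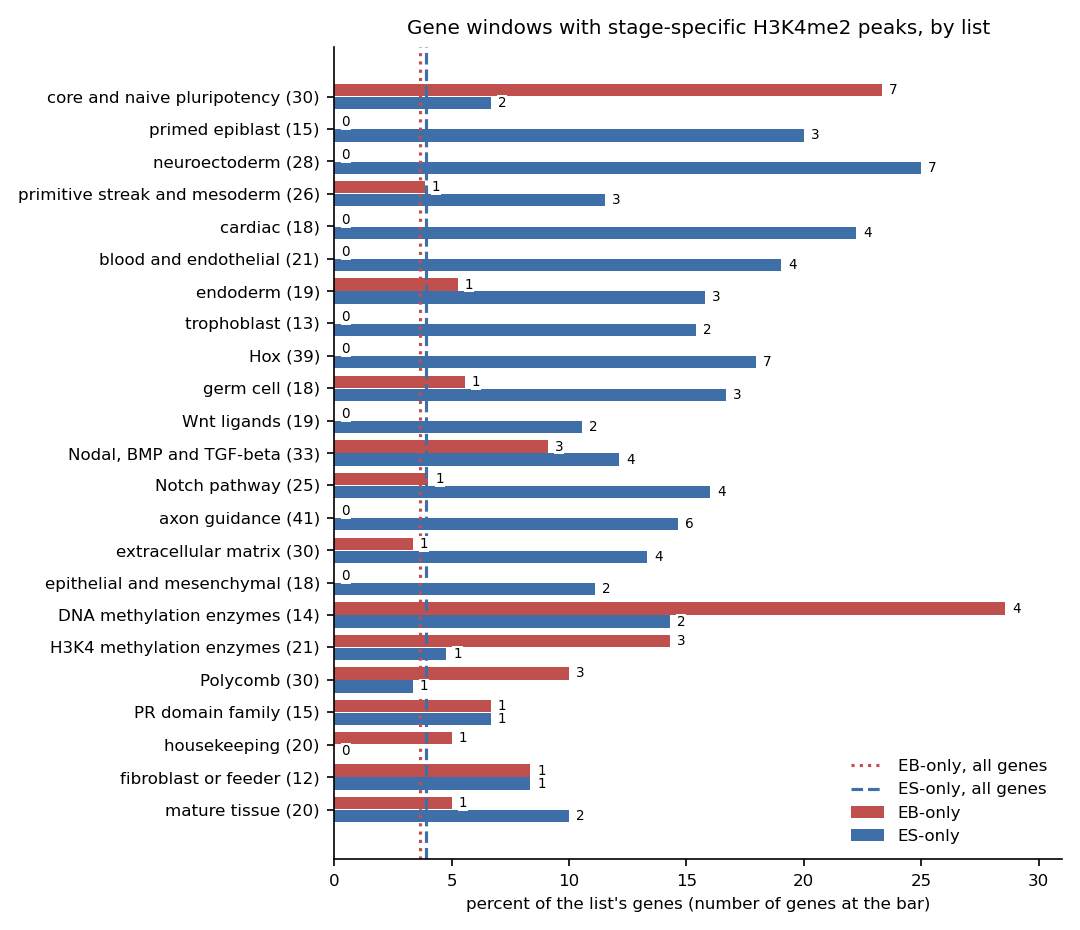
Percent of each list's genes called EB-only and ES-only, with the number of genes at each bar and the list size in brackets. Dotted and dashed lines are the shares over all 21887 genes, 3.65% EB-only and 3.92% ES-only. EB-only shares are highest for DNA methylation enzymes (4 of 14) and core and naive pluripotency (7 of 30), and ES-only shares for neuroectoderm (7 of 28) and cardiac genes (4 of 18).

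In the core and naive pluripotency list, the EB-only genes were Tfcp2l1, Klf2, Klf5, Prdm14, Tet2, Fgf4 and Gdf3. Tfcp2l1, a transcription factor of the naive network, had peaks covering 1859 and 3362 bp of its window in EB, with scores of 216.51 and 284.85, and none in ES cells. Klf2, a Krüppel-like factor of naive self-renewal, had 2672 and 4940 bp in EB, with scores of 93.11 and 185.37. Prdm14, which represses DNA methyltransferases in naive cells, had 4827 and 4737 bp in EB, with scores of 125.58 and 294.47. All 7 were again EB-only in KO, and no KO ES list held a peak at any of them. Fgf4, the growth factor that pushes ES cells toward differentiation, covered 3786 and 4488 bp in EB, and its promoter is printed above.

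The ES-only members were Dppa4 and Tcl1. Dppa4, a chromatin protein of early embryo and ES cells, had no peak in EB and 4618 and 3709 bp in ES cells. Tcl1, a cofactor of AKT, had no peak in EB and 2280 and 1493 bp in ES cells, and both were again ES-only in KO. Zfp42, also known as Rex1, had 0 and 1705 bp in EB against 4362 and 4009 bp in ES cells. Esrrb, Klf4 and Nr0b1 were marked in all 4 lists, with Esrrb at 4104 and 3951 bp in EB against 2912 and 3414 bp in ES cells. Dppa3 had 0 and 1636 bp in EB against 1083 and 0 bp in ES cells, Spp1 had a peak in ES replicate 2 alone and Tdh in EB replicate 2 alone. Jam2 was EB-only as a region but not as a gene, since ES replicate 2 had a peak of score 53.76 elsewhere in its windows.

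The other 13 members had no peak at their gene windows in any of the 4 lists, among them Pou5f1, Nanog and Sox2, which form the core of the ES cell network. The nearest ES peak lay 14547 and 34573 bp from Pou5f1 and 62848 and 69825 bp from Nanog. The nearest EB peak lay 3259 and 2373 bp from Pou5f1, and EB replicate 2 had a peak inside Nanog but outside its window. In KO, both EB lists held peaks at Pou5f1 (4177 and 4750 bp) and at Tdgf1, a Nodal coreceptor (4175 and 4144 bp), and no KO ES list did. Of 20 housekeeping genes, 9 were marked in all 4 lists, 1 (Rab7) was EB-only and 7 were in none, including Actb, Gapdh, Eef1a1 and Polr2a. Genes known to be strongly used in ES cells were thus without a called peak, so absence of a peak cannot be read as absence of the mark, and the defining markers do not check the stage labels. In each of the 4 lists the widest peak was 8391 to 8714 bp. Scores were highest at widths of 3000 to 5000 bp and lower in wider peaks, with medians of 162.9 and 99.2 in EB replicate 1 and 200.4 and 121.2 in ES replicate 1. Whether the peak calling passed over the broadest or strongest domains was not tested.

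**Figure D5:**
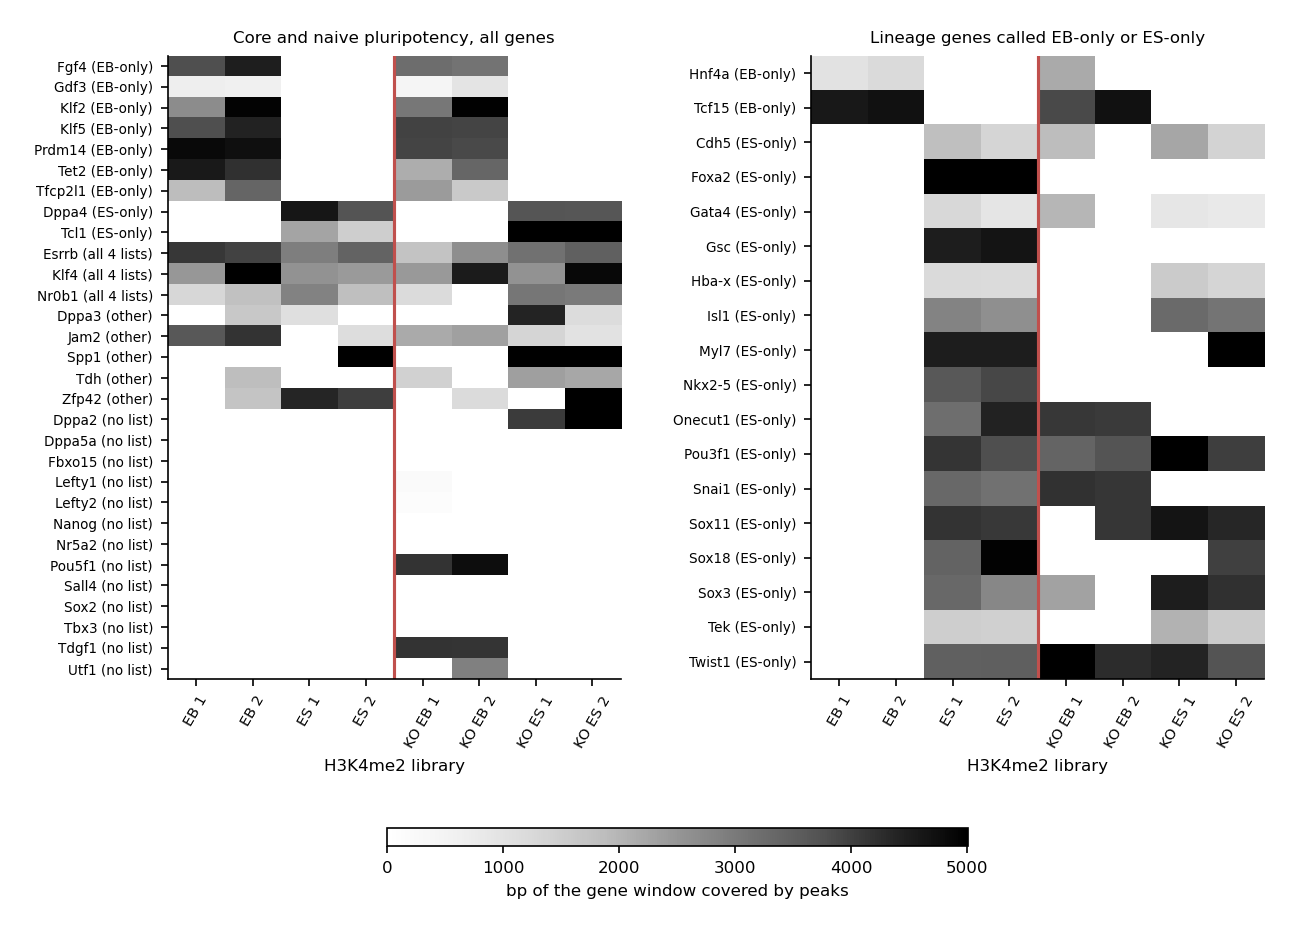
Base pairs of each gene's window covered by H3K4me2 peaks (white 0, black 5000) in the 4 wild-type libraries, left of the red line, and the 4 Prdm16 KO libraries, right of it. Left panel, all 30 core and naive pluripotency genes, and right panel, the called genes of the primed epiblast, streak, cardiac, blood and endoderm lists. The 7 EB-only pluripotency genes keep their pattern in KO, whereas several ES-only lineage genes have peaks in KO EB lists.

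Neuroectoderm gave 0 EB-only and 7 ES-only genes of 28, among them the transcription factor genes Emx2, Fezf1, Lhx2, Pax7 and Zic1. Lhx2, a LIM factor of forebrain and eye, had no peak in EB, and 2660 and 2360 bp with scores of 159.7 and 203.84 in ES cells. Peaks lay at 3 and 4 of the 28 genes in EB, against 13 and 13 in ES cells. Over all 21887 genes, peaks lay at 10985 and 11865 in EB, against 11805 and 11449 in ES cells. In KO the list did not part the stages, with peaks at 11 and 8 genes in EB against 9 and 10 in ES cells. Over all genes the KO numbers were 11849 and 11100 in EB, against 11397 and 12139 in ES cells. Of the 7 genes, 1 (Zic1) was ES-only in KO, whereas Lhx2, for example, held peaks in all 4 KO lists.

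The 15 primed epiblast genes had 0 EB-only and 3 ES-only members, Pou3f1, Sox3 and Sox11. Pou3f1, also called Oct6, had no peak in EB, and 4155 and 3787 bp in ES cells. All 3 had a peak in at least 1 KO EB list, so none was ES-only in KO.

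In mesoderm and its derivatives, few genes were called, and more of them were ES-only than EB-only. Of 26 primitive streak and mesoderm genes, 1 was EB-only, Tcf15, a factor of paraxial mesoderm and of ES cells primed to differentiate, with 4590 and 4701 bp in EB. Gsc, Snai1 and Twist1 were ES-only (11.5%), but none was again ES-only in KO, and Snai1 was EB-only there. Twist1, a driver of mesenchymal fate, had no peak in EB, and 3464 and 3490 bp with scores of 272.81 and 288.43 in ES cells, and it held peaks in all 4 KO lists. Of 18 cardiac genes, Gata4, Isl1, Myl7 and Nkx2-5 were ES-only (22.2%) and none EB-only. Isl1, the marker of second heart field progenitors, had no peak in EB, and 2823 and 2617 bp in ES cells, and was again ES-only in KO. Of 21 blood and endothelial genes, Cdh5, Hba-x, Sox18 and Tek were ES-only and none EB-only. Tek, the angiopoietin receptor, had no peak in EB, and 1487 and 1437 bp with scores of 196.14 and 138.35 in ES cells.

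Endoderm gave 1 EB-only gene of 19, Hnf4a, a factor of visceral endoderm and liver, whose peaks of 1012 and 1220 bp had scores of 55.98 and 84.06. Foxa2, Gata4 and Onecut1 were ES-only, and the scores of Foxa2, 59.68 and 56.47 in ES cells, were near the lowest kept. In KO, none of these 3 was ES-only and 1 was EB-only. Among 13 trophoblast genes, Krt8 and Krt18, keratins of simple epithelia, were ES-only. Of 39 Hox genes, 7 were ES-only (17.9%) and none EB-only, from Hoxa13, Hoxb2 and Hoxb3 to Hoxc4, Hoxc10, Hoxd3 and Hoxd13. Peaks lay at 4 and 11 Hox genes in EB, against 19 and 20 in ES cells. Neighbouring Hox genes can share a peak, as Hoxb2 and Hoxb3 do. At equal list lengths no Hox gene was ES-only, against 514 of all 21887 genes, so the Hox count rested on weaker peaks. Without EB replicate 2 the Hox count was 14, against 1550 of all genes.

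The germ cell list had 1 EB-only gene of 18, Dnd1, and 3 ES-only genes, Stra8, Sycp3 and Tex19.1 (16.7%). Sycp3, a protein of the meiotic chromosome axis, had no peak in EB, and scores of 329.85 and 324.24 in ES cells. All 3 were again ES-only in KO, and no EB list of either genotype held a peak at any of them.

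In signalling pathways, ligand genes were found in both classes. Of 33 Nodal, BMP and TGF-beta genes, 3 were EB-only (9.09%), the ligand genes Bmp5, Gdf3 and Inhbb, and 4 ES-only (12.1%), the ligands Bmp7 and Tgfb3, the transducer Smad3 and the target Id3. Smad3 had no peak in wild-type EB, and scores of 308.94 and 236.96 in ES cells, but it held peaks in all 4 KO lists. Of 25 Notch pathway genes, the DNA-binding effector Rbpj was EB-only, and the ligands Dll1 and Jag1, the receptor Notch2 and the modifier Lfng were ES-only (16.0%). Of 19 Wnt ligand genes, Wnt1 and Wnt4 were ES-only and none EB-only, and both held peaks in both KO EB lists. Of 41 axon guidance genes, 6 were ES-only (14.6%) and none EB-only: the ephrins Efna5 and Efnb2, the ephrin receptor Epha4, Nrp2, Sema3f and Unc5a. Of 30 extracellular matrix genes, fibronectin (Fn1) was EB-only and the collagens Col4a1, Col4a2, Col5a2 and Col18a1 were ES-only, where Col4a1 and Col4a2 share 1 start region. Of 18 epithelial and mesenchymal genes, Snai1 and Twist1, already named, were ES-only in wild type and none EB-only, and neither was ES-only in KO.

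In the lists of DNA methylation enzymes, H3K4 methylation enzymes and Polycomb genes, more genes were EB-only than ES-only. The counts were small and no test was made. Of 14 DNA methylation enzymes, 4 were EB-only (28.6%): Tet1 and Tet2, which oxidise methylcytosine, the maintenance methyltransferase Dnmt1 and the cofactor Dnmt3l. Tet2, also counted among the pluripotency genes, had 4568 and 4203 bp in EB, with scores of 240.85 and 470.9, and no peak in ES cells. Tet1 had 3703 and 4002 bp in EB and no peak in ES cells. Tet3 and the glycosylase gene Tdg were ES-only, with Tet3 at scores of 376.55 and 272.83 in ES cells. The 3 Tet genes were thus split between the stages, and all 3 kept their class in KO. In the higher-scoring 50% of each list, 2 of the 14 DNA methylation enzymes were EB-only and 3 ES-only, against 644 and 1094 of all 21887 genes. Without EB replicate 1 the counts were 4 and 3, against 1206 and 1077 of all genes. Of 21 H3K4 methylation enzymes, Dpy30 and Rbbp5, shared subunits of the KMT2 complexes, and the demethylase Kdm1a were EB-only (14.3%), all again EB-only in KO, and Kmt2d, a methyltransferase of enhancers, was ES-only. Of 30 Polycomb genes, Eed, Mtf2 and Cbx6 were EB-only (10.0%) and Ezh1 ES-only. Prdm14 was EB-only and Prdm6 ES-only of 15 PR domain family genes.

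Markers of cells that could be carried over were not called in 1 direction. Of 12 fibroblast or feeder genes, Pdgfrb was EB-only and Fbln2 ES-only, with peaks at 5 and 6 of the 12 in EB against 5 and 5 in ES cells. Of 20 mature tissue genes, Syp was EB-only and Cd3e and Umod were ES-only, with peaks at 6 and 9 in EB against 8 and 7 in ES cells. In KO, Syp was ES-only.

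Over the 498 genes of all 23 lists, 26 were EB-only and 65 ES-only. In KO, 19 of the 26 EB-only genes held a peak in both EB lists. Of those, 18 held none in either ES list and so were EB-only in KO, as were 447 of all 799 EB-only genes (55.9%). Of the 65 ES-only genes, 43 held a peak in both KO ES lists. Of those, 20 held none in either KO EB list and so were ES-only in KO, as were 372 of all 858 ES-only genes (43.4%). A peak in at least 1 KO list of the other stage was found at 3 of the 26 EB-only and 31 of the 65 ES-only genes. That share was not counted over all EB-only or ES-only genes. Over all 21887 genes, peaks lay at 54.1% and 50.7% in KO EB and at 52.1% and 55.5% in KO ES cells. Whether the wild-type and KO embryoid bodies differ at these genes was not tested.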

How the data were processed

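The authors deposited a separate peak list for every library, in which each peak has a score of unstated unit, used here to order and threshold peaks inside their own list. The submitters' processing notes name mm10 as build, and HOMER 4.10, SAMtools 1.5, MACS2, Bowtie2, deepTools and bedtools without role or order. Settings, control libraries and read totals are not given. Overlapping peaks (1 bp or more) of autosomes 1 to 19 and the X and Y were merged, and 1 mitochondrial peak a list was set aside. Genes, starts and sequences came from RefSeq tables of GRCm38.p6, whose coordinates are those of mm10. Of 21887 protein-coding genes, 17492 had a listed start, and the other 4395 were taken at both gene ends. Exons and introns were not resolved. Tests were exact two-sided permutations over libraries, with Python 3.11.15, numpy 2.4.6, pandas 2.3.3 and scipy 1.17.1, and the counting was tested on simulated data. Regions named are, per direction, the 12 at gene starts and 8 away with the highest lower score rank, plus the 6 genes with most regions. List members may be named when called, and pluripotency and housekeeping genes whatever their call. Members and lists were chosen with earlier results of these data known. Alternatives were equal list lengths, the higher-scoring 50% of each list, other windows and overlaps, and leaving out each library. A few named items are not reported here.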

Additional observations from a re-analysis of the deposited data

How the results depend on the processing

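Alternatives marked here as added were chosen after seeing the data. Under the higher-scoring 50% of each list, 763 regions were EB-only and 2902 ES-only. At equal list lengths 2737 were ES-only, and with 50% of a region covered 2871 were EB-only. Leaving out 1 library gave 2217 to 5014 EB-only and 6994 to 10538 ES-only regions. At equal list lengths 1475 genes were EB-only and 514 ES-only, and leaving out 1 library gave 956 to 1206 and 1063 to 1550. The shares at gene starts were 54.6% and 76.4% (EB-only) and 19.2% and 35.9% (ES-only) at equal lengths and in the higher-scoring 50%. Median widths were 3503 and 3976 bp (EB-only) and 2612 and 2980 bp (ES-only). The log2 ratio of covered base pairs turned to 0.26 at equal list lengths and 0.00632 without EB replicate 1 (range -0.39 to 0.00632). The cause was not tested. The held-out difference stayed between 54.4 and 77.9 points, p = 0.00926 each (exact permutation), under the alternatives run. Same-numbered libraries were not shown to pair (r = -0.066 over 23051 regions). With the replicate block it was 73.8 points with an exact p of 0.0312, the block p for peak number was 0.5, and region counts stayed 1807 and 6668. EB-only minus ES-only turned to -1 for DNA methylation enzymes in the higher-scoring 50%, to 2 for Nodal, BMP and TGF-beta at equal lengths and with 10000 bp windows, and to 1 for mature tissue genes at equal lengths and without EB replicate 1. Of 91 called list genes, 58 kept their call at equal lengths and 38 in the higher-scoring 50%, against 40 and 40 of the 40 named regions. Added alternatives were regions of at most 5000 bp (1281 EB-only, 5962 ES-only), genes with a listed start (651 and 618), and the replicate block for the held-out difference and for genes (799 and 858). Unknown depth limits all counts.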
